A study of Mus musculus with 71 samples.

Results

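The HoxA cluster genes *Hoxa2*, *Hoxa3*, *Hoxa4*, *Hoxa5*, *Hoxa6*, *Hoxa7*, *Hoxa9*, *Hoxa10* and *Hoxa11* were examined in a map of chromatin loops from mouse synovial sarcoma (SyS). These are 9 of the 55450 genes in the GENCODE annotation. Loops were chosen where an anchor lay within 2 kb of an annotated transcription start site (TSS) of one of these genes, or where a loop stayed in or left the cluster at chr6:52155590-52260880 (mm10). By this rule 37 of the 24244 loops in the map touched the cluster. Both tumors came from mice that express SS18::SSX2 from the hSS2 allele, a conditional transgene at Rosa26 that is switched on by Cre recombinase. TATCre protein was injected into the hindlimb of pups, so the fusion is expressed in whichever cells were recombined there. Whole tumors were used, which also hold immune, endothelial and stromal cells, and a tag from one cell type cannot be told apart from a tag from another. There was no untreated or fusion-free group, and the map merges 2 tumors into 1 list, so no value below has a replicate error and no test between conditions was possible.

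H3K27ac HiChIP ligates pieces of DNA that lie together in the nucleus and captures the ligated pieces that carry acetylated lysine 27 of histone H3, a mark of active promoters and enhancers. A loop is a pair of anchors joined by more ligated read pairs than a distance model allows, and its tag count is the number of those read pairs. The list held 41574 tags, with a mean of 1.71 and a median of 1 per loop. It ran as a first part of 13683 loops and a second part of 10561 loops, each sorted by position. Nothing in the file ties a part to a tumor, so values by part are given as a description of the list. Intervals on tag sums are exact Poisson and intervals on shares are Wilson, both at 95%. They cover counting error only, since 1 merged list holds no replicate values. They also treat tags as independent molecules, which any reads copied by PCR would not be. Promoters of SyS-related genes were looped at 7 of 8 (*Tle1*, *Sox2*, *Sox9*, *Twist1*, *Pdgfra*, *Fgfr2* and *Zic1*, but not *Bcl2*), and those of immune genes at 0 of 5 and of endothelial genes at 2 of 4, beside 45.8% of all protein-coding genes.

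Hox genes encode homeodomain transcription factors that give cells their position along the body axis and the limbs. Within the HoxA cluster they stand in the order in which they are used, with anterior genes at one end and *Hoxa13* at the posterior end. The cluster lies at the border of a pair of large contact domains, one beyond the anterior end that holds *Skap2* and one beyond *Hoxa13* that holds *Evx1*, *Hibadh*, *Tax1bp1* and *Jazf1*. Enhancers of the posterior genes in the embryonic limb have been mapped in the latter domain. Hox clusters are classic targets of Polycomb repression, and the SSX part of the fusion binds nucleosomes that carry ubiquitin placed by Polycomb. These statements are background and not results of the present map.

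HoxA promoters held few tags each, as looped protein-coding promoters of the list also did, and their loops spanned more than 100 kb. Of the 9 members, 7 had at least 1 loop, beside 45.8% of 21951 protein-coding genes and 23.9% of all GENCODE genes. The loop score of a gene, the summed tags of the loops at its promoter, ran from 0 to 7 with a median of 4 over the 9 members. Among the 7 looped members the median was 6, beside 4 over the 10050 looped protein-coding genes. No member reached a loop score of 10, beside 10.9% of protein-coding genes. With a 5 kb promoter window 3 members did, *Hoxa2* with 13 and *Hoxa3* and *Hoxa10* with 10 each. A wider window can only add tags to any gene, and it can count the tags of 1 anchor for more than 1 member. The members together met 44 distinct tags at 5 kb, beside 35 at 2 kb, so the 5 kb scores partly repeat the same tags. The share of all genes at 5 kb was not computed. No looped member had a loop shorter than 100 kb, beside 15.2% of looped protein-coding genes. For 9 members, of which 7 were looped, counts of 0 lie near the 10.9% and 15.2% shares and do not set the members apart.

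At the anterior end, *Hoxa2*, which specifies the second pharyngeal arch and parts of the hindbrain, had 4 loops and a loop score of 7 (95% interval 2.81 to 14.4). Of these tags, 6 were in the first part of the list and 1 in the second. *Hoxa2* was the sole member looped in both parts, beside 53.1% of looped protein-coding genes. Of the 7 looped members 6 had loops in the first part, beside 76.7% of looped protein-coding genes, and 2 in the second, beside 76.4%. *Hoxa2* also carried the strongest loop of the cluster, with 4 tags and a false discovery rate (FDR) of 4.63e-08 in the deposited list, which ran 695 kb to the shared promoter region of *Cbx3* and *Hnrnpa2b1*. *Hoxa3*, needed for the thymus and parathyroid, had no loop, and its nearest start site lay 2.38 kb from an anchor. That anchor distance is just past the 2 kb limit, and with a 5 kb window *Hoxa3* had a loop score of 10. With RefSeq start sites it also had a loop score of 10, from computer-predicted transcripts that start inside or beside the *Hoxaas3* and *Hoxa6* anchors.

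In the middle of the cluster, *Hoxa4*, which patterns the neck vertebrae, had 4 loops and a loop score of 6 (2.20 to 13.1), all in the first part of the list. *Hoxa5*, which acts in lung and neck development, had a single loop of 1 tag, in the second part. *Hoxa6*, a patterning gene of the trunk skeleton, had 4 loops and a loop score of 7 (2.81 to 14.4), all in the first part. *Hoxa7* had no loop, and its nearest start site lay 3.14 kb from an anchor. The intervals of *Hoxa2*, *Hoxa4* and *Hoxa6* overlapped almost wholly. With the 5 kb window *Hoxa5* had a loop score of 8 and *Hoxa7* of 4, which include tags of the anchors at *Hoxa6* and *Hoxa9*.

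At the posterior end, *Hoxa9*, a regulator of blood stem cells that is also active in leukemia, had 3 loops and a loop score of 4 (1.09 to 10.2). *Hoxa10*, which patterns the lumbar skeleton and the uterus, had 4 loops of 1 tag each and so also a loop score of 4 (1.09 to 10.2). *Hoxa11*, a gene of the forearm, lower leg and kidney, had 4 loops and a loop score of 6 (2.20 to 13.1). All of these tags were in the first part of the list. The order of the 7 looped members was *Hoxa2* and *Hoxa6*, then *Hoxa4* and *Hoxa11*, then *Hoxa9* and *Hoxa10*, then *Hoxa5*, and the intervals of all 7 overlapped. The order turned with the 5 kb window, where *Hoxa10* had 10, *Hoxa5*, *Hoxa6* and *Hoxa9* had 8 each, and *Hoxa4* and *Hoxa11* stayed at 6, below them. At that window neighboring members share anchors, and the score of *Hoxa10* takes in the 6 tags of the *Hoxa11* anchor. *Hoxa10* therefore does not stand above *Hoxa11* on tags of its own. Outside the chosen members, *Hoxa13* had a loop score of 9 (4.12 to 17.1), wholly in the first part. *Hoxa13* is the last gene of the cluster and acts in the hand, foot and urogenital tract.

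**Figure D1:**
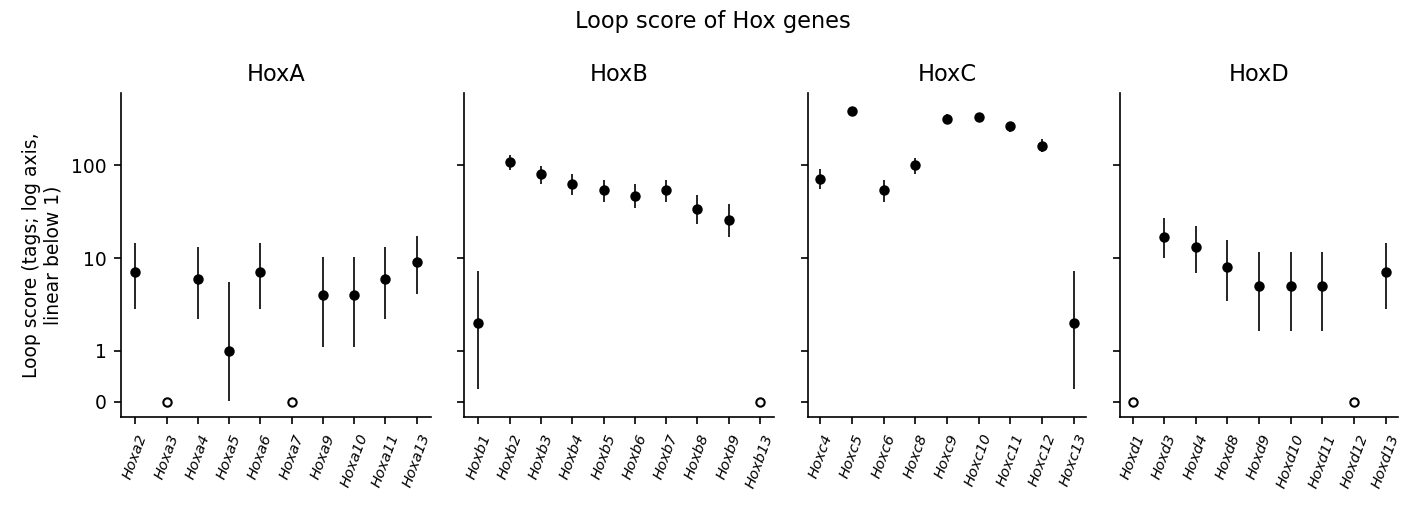
Loop score (summed tags of loops at the promoter, log axis that is linear below 1) of genes in the 4 Hox clusters, with exact Poisson 95% intervals and open circles for genes with no loop. The HoxA genes shown sit between 0 and 9 tags, while *Hoxc5* reaches 385.

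The promoters of the most strongly looped member at each stretch of the cluster differ in base composition, and they are shown with every CpG in capitals. The sequences are from RefSeq on GRCm38.p6, on the minus strand, and each covers 300 bases around the start site, most of them upstream. *Hoxa2* is at chr6:52164782-52165081 with 9 CpG, *Hoxa6* at chr6:52208623-52208922 with 26, and *Hoxa11* at chr6:52245761-52246060 with 15.
Hoxa2: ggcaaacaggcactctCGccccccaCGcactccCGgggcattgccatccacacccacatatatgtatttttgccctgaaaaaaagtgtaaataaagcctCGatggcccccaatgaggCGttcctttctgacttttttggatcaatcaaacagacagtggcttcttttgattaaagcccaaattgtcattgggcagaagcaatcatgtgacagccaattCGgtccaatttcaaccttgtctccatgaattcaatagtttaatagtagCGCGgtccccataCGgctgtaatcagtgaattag
Hoxa6: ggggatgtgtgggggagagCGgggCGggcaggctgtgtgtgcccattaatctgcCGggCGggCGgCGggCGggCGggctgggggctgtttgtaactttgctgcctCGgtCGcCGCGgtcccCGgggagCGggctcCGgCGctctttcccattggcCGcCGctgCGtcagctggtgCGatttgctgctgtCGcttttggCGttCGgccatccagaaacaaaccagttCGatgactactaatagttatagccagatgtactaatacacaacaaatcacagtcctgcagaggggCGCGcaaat
Hoxa11: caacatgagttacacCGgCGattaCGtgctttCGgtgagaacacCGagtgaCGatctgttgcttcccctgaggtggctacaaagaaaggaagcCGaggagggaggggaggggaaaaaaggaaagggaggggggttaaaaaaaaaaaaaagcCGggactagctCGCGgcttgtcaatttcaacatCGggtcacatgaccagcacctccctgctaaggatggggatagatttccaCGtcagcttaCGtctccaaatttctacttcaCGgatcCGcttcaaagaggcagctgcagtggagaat
*Hoxa2* and *Hoxa6* had the same loop score of 7, with 9 and 26 CpG in these promoters. Whether CpG content goes with loop score was not tested. Over the 9 member promoters in the RefSeq table, which cover 8 of the 9 genes, the median was 15 CpG per 300 bases (range 4 to 29), beside 7 over 32851 promoters. The anchors themselves had a median of 5.40 CpG per 100 bases in the cluster (2.98 to 8.33), beside 3.28 over the 16864 anchors of the list. MboI cuts the DNA at GATC before ligation, so these sites set where fragments can be joined. The HoxA anchors had a median of 5.00 sites (2 to 12), and all anchors of the list also had a median of 5.00.

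No loop joined any HoxA gene to another. All 37 loops and all 53 tags left the cluster, and 0 of 55 pairs formed by the 11 anchor regions in the cluster were joined. In the first part of the list 7 of these regions carried loops, which gives 21 pairs, and in the second part 5 did, which gives 10 pairs. The anchor at *Hoxa2* was the single region found in both parts. Among genome windows of the cluster's length, 26 held 8 or more anchor regions, and 6 of these (23.1%, 11 to 42.1) had no loop inside. The share depended on this minimum. Of 340 windows with 5 or more regions, 161 (47.4%, 42.1 to 52.7) had no loop inside, and of 5 windows with 10 or more regions, 1 had none. The windows were laid end to end over the genome, so some cover parts of the Hox clusters themselves.

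The depth of the list limits what can be read from the missing inner loops. The caller asks for more tags at short range, because nearby fragments often ligate by chance. Among the 1244 loops under 100 kb the lowest tag count was 2 and the median 9, and in the first part the lowest was 6. Single-tag loops began at a span of 344 kb among first-part loops and of 109 kb among those of the second part. Short contacts within the 105 kb HoxA cluster with few tags would therefore not be in the list, and their absence was not detectable as a lack of contact. The HoxA loops spanned 151 to 1794 kb, with a median of 454 kb. At matched span their tag counts were near those of the list, with a mean of 1.48 over the 33 HoxA loops of 100 kb to 1 Mb and of 1.35 over all 17796 such loops. Within the first part these means were 1.56 and 1.59, and within the second 1.25 and 1.10.

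**Figure D2:**
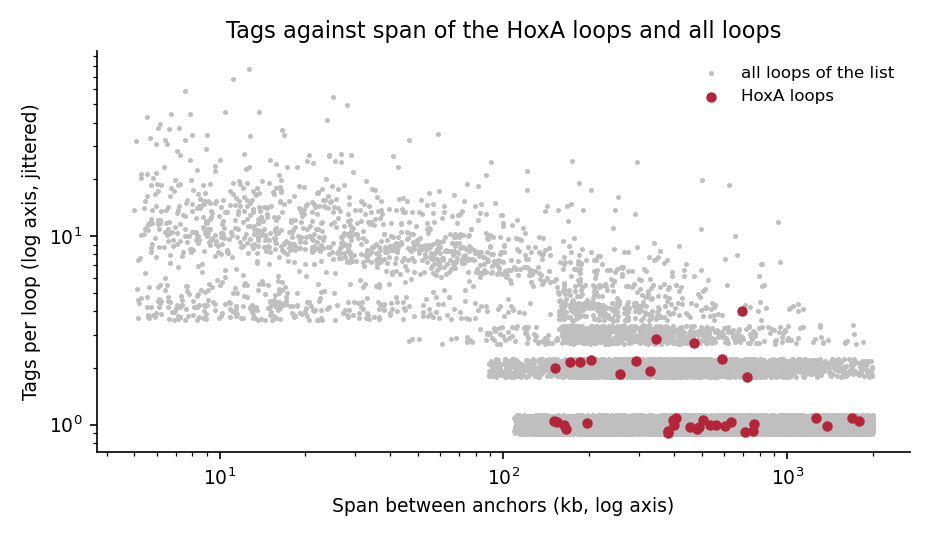
Tags per loop (log axis, points jittered) against the span between anchors in kb (log axis) for all 24244 loops in gray and the 37 HoxA loops in red. All HoxA loops span 151 kb or more and hold 1 to 4 tags, and no loop under 100 kb holds a single tag.

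The 37 loops reached 17 far anchors, 10 on the *Skap2* side with 28 tags and 7 on the *Evx1* side with 25 tags. The *Skap2* side thus held 52.8% of the tags (39.7 to 65.6). This even split hid an order along the cluster. From *Hoxa2*, the looped member at the anterior end, 6 of 7 tags (85.7%, 48.7 to 97.4) went to the *Skap2* side. From the central genes *Hoxa4*, *Hoxa5* and *Hoxa6* the share was 9 of 14 (64.3%, 38.8 to 83.7). From the posterior genes *Hoxa9*, *Hoxa10*, *Hoxa11* and *Hoxa13* it was 4 of 23 (17.4%, 6.98 to 37.1). The intervals of *Hoxa2* and of the posterior genes did not overlap, and the central interval overlapped both.

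The part of the list moved with the side. All 11 tags of the second part went to the *Skap2* side, and none came from an anchor beyond *Hoxa5*. In the first part alone, 5 of 6 *Hoxa2* tags (83.3%, 43.6 to 97.0), 8 of 13 central tags (61.5%, 35.5 to 82.3) and 4 of 23 posterior tags (17.4%, 6.98 to 37.1) lay on the *Skap2* side. The order was therefore also present within that part. Without *Hoxa13*, *Hoxa9*, *Hoxa10* and *Hoxa11* together sent 3 of 14 tags there (21.4%, 7.57 to 47.6), an interval that overlaps the first-part interval of *Hoxa2*. Counted as loops in the first part, 2 of 3 from *Hoxa2*, 4 of 8 from the central genes and 3 of 11 from these 3 genes went there. Over both parts these counts were 3 of 4, 5 of 9 and 3 of 11. The shares of loops lie closer together than those of tags, since 4 of the *Hoxa2* tags are 1 loop. Loops that share an anchor are not independent, so these intervals, which treat each tag as independent, may be too narrow.

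**Figure D3:**
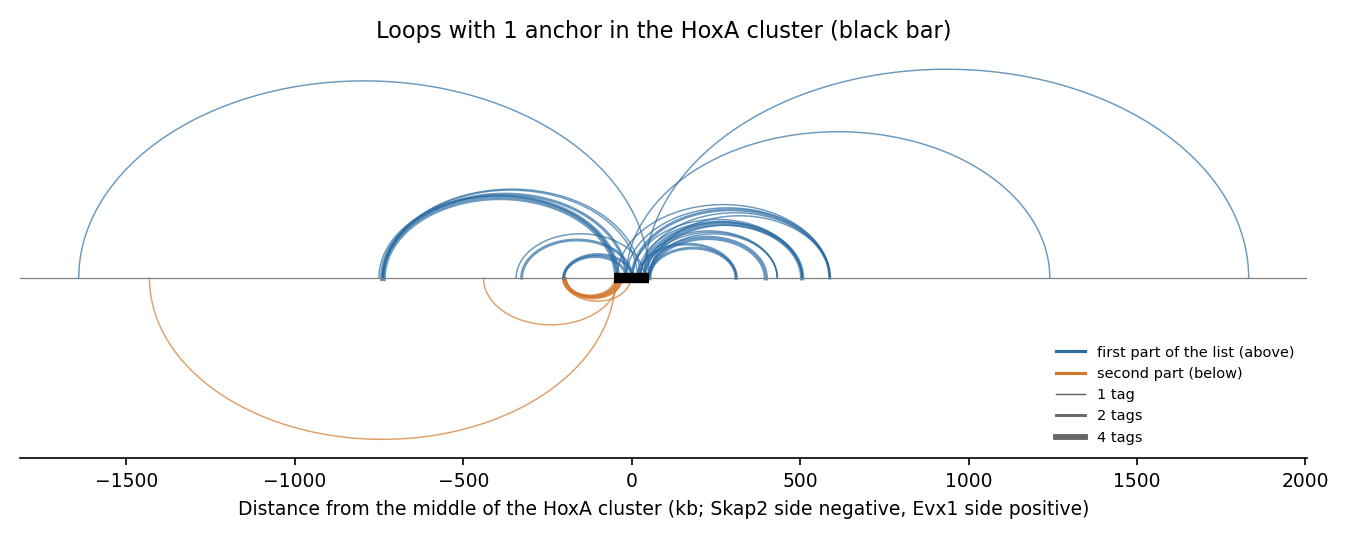
Arcs for the 37 loops with 1 anchor in the HoxA cluster (black bar), by distance in kb from the middle of the cluster, with the first part of the list above the line, the second below and line width by tags. The 11 tags of the second part all go to the *Skap2* side, while the first part goes to both.

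Some far anchors were shared between anchors of the cluster. How often far anchors are shared in other regions of the list was not computed, so the counts do not set HoxA apart. Of the 17 far anchors, 7 met more than 1 anchor of the cluster, and these 7 carried 27 loops and 40 of the 53 tags. On the *Skap2* side the outermost of them was the promoter region of *Cbx3* and *Hnrnpa2b1* at chr6:51467542-51471959, a pair of neighboring genes for a heterochromatin protein and an RNA-binding protein that are active in most cells. It took 4 tags from *Hoxa2*, 2 from *Hoxa4*, 1 from *Hoxa9* and 1 from *Hoxa10*, all in the first part of the list. These 8 tags were 22.9% of the 35 tags at member promoters, more than at any other partner gene. The region had 13 tags in all, so it also joined sites outside HoxA.

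Nearer to the cluster, an anchor in the body of *Skap2* at chr6:52005518-52008848 overlapped no annotated exon and lay 3.67 kb from the nearest *Skap2* start site. *Skap2* encodes an adaptor protein of Src kinase signaling. The anchor took 9 tags in all, among them 2 each from *Hoxaas3*, *Hoxa4* and *Hoxa6* and 1 from *Hoxa5*, with 4 tags in the first part of the list and 5 in the second. All 5 of its loops went to the HoxA cluster, and it was the single far anchor with tags in both parts. The *Skap2* promoter itself at chr6:52011467-52015357 took 3 tags, 1 each from *Hoxa2*, *Hoxaas2* and *Hoxaas3*, all in the second part. *Hoxaas2* and *Hoxaas3* are antisense transcripts of the cluster, and the anchors at their other start sites reached the *Skap2* side alone. All tags of those anchors were in the second part, where all 11 HoxA tags went to the *Skap2* side.

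On the *Evx1* side, the promoter of *Tax1bp1*, a selective autophagy receptor, lay under the anchor at chr6:52712895-52715289 and took 7 tags. *Hoxa11* gave 3 of these in a loop of 468 kb (FDR 3.92e-05), and *Hoxa6*, *Hoxa9*, *Hoxa10* and *Hoxa13* gave 1 each. An anchor in the body of *Jazf1*, a zinc finger gene, at chr6:52794272-52797863 overlapped no exon and lay 16 kb from the nearest start site. It took 2 tags from *Hoxa6* and 1 each from *Hoxa2*, *Hoxa4*, *Hoxa10* and *Hoxa13*, and all 5 of its loops went to HoxA. The *Skap2* and *Jazf1* anchors thus each met 5 cluster anchors and nothing else in the map.

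The remaining shared sites were smaller. An intergenic anchor at chr6:52515550-52521121 took 2 tags from *Hoxa9* and 2 from *Hoxa13*. The promoter of *Hibadh*, an enzyme of valine breakdown, took 1 tag each from *Hoxa10*, *Hoxa11* and *Hoxa13*. A separate site in the *Hibadh* body, near the noncoding gene *Gm44434*, took 3 tags from *Hoxa13* in 1 loop (FDR 0.000136). *Evx1*, the homeobox gene next to *Hoxa13*, had 4 loops of its own and none to the cluster. The 10 far anchors that met a single cluster anchor carried 13 tags in all, and they included single-tag loops to the promoters of *Cycs* and *Chn2*.

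**Figure D4:**
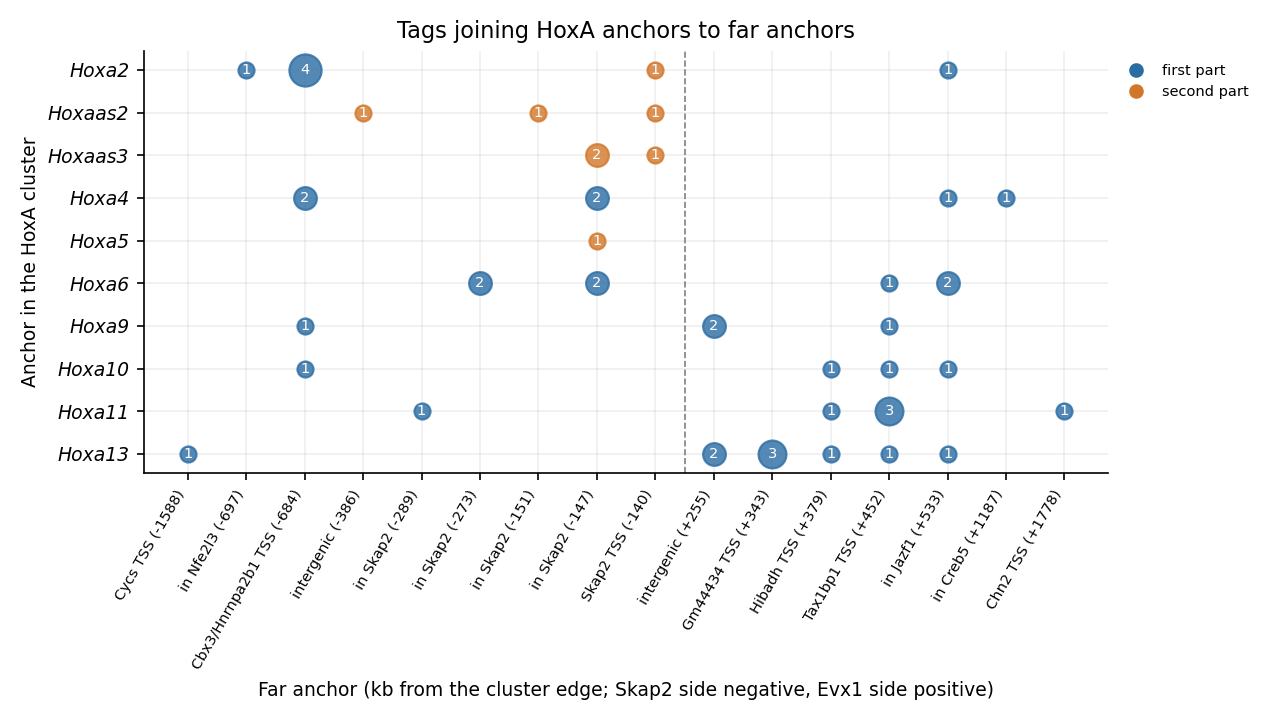
Tags (number and dot area) joining 10 anchor regions in the HoxA cluster (rows, anterior to posterior) to 16 far anchors (columns, with kb from the cluster edge), colored by part of the list, with a dashed line where the cluster lies. Dots shift from the *Skap2* side to the *Evx1* side from *Hoxa2* to *Hoxa13*.

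The *Skap2* and *Jazf1* anchors overlapped no exon and joined HoxA alone, and the 300 bases of each with the most CpG are printed on the plus strand of GRCm38.p6 with CpG in capitals. The *Skap2* window is chr6:52006585-52006884 with 13 CpG and the *Jazf1* window is chr6:52794517-52794816 with 9.
Skap2 anchor: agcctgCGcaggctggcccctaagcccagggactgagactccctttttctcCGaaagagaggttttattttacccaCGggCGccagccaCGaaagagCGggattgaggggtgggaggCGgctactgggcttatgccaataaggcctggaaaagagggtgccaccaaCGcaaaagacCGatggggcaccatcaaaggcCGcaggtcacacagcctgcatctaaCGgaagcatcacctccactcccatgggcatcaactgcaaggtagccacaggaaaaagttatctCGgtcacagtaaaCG
Jazf1 anchor: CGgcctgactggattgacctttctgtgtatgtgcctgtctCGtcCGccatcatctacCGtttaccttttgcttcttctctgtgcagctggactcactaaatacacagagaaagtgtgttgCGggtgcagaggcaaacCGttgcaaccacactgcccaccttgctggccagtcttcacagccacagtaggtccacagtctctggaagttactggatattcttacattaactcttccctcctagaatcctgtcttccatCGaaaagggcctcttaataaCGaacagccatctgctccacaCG
The 17 far anchors had a median of 1.36 CpG per 100 bases, beside 5.40 in the cluster anchors. Of the 17, 8 (47.1%, 26.2 to 69.0) lay within 2 kb of an annotated start site, beside 77.0% (76.3 to 77.6) of all anchors of the list. These shares are not alike, since the 77.0% counts both ends of every loop. The 17 leave out the cluster ends, and all 11 cluster anchors lay within 2 kb of an annotated start site. With the 5 kb window the share of the far anchors was 58.8%, and that of all anchors was not computed. The 8 anchors near a start site carried 27 tags and the other 9 carried 26.

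CTCF is a DNA-binding protein found at many loop anchors, and a spelling of its core motif (CCA, any 2 bases, AG, any 2 bases, GGC) was searched on both strands. A match was present in 1 of 11 cluster anchors (9.09%) and in 2 of 17 far anchors (11.8%), beside 20.6% of all anchors. The 3 matches are shown with 9 bases on each side and the core in capitals, from chr6:52246788-52246817 (minus strand), chr6:52714311-52714340 (plus strand) and chr6:52795403-52795432 (minus strand).
Hoxa11 anchor: gcagcatacCCAGGAGAAGGCtcctcagcg
Tax1bp1 anchor: ctctggtgcCCAAGAGAAGGCtttaagaaa
Jazf1 anchor: tacaagcagCCATAAGAAGGCccaaagaca
The anchors of the 3-tag loop between *Hoxa11* and *Tax1bp1* each held a match. A match is a description of letters and says nothing of whether CTCF was bound.

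Among the Hox clusters, HoxA and HoxD had no inner loops in the list, while HoxB and HoxC had many. HoxC, which spans 116 kb, had 605 tags (558 to 655) in 30 loops within the cluster. HoxB, which spans 174 kb, had 142 tags (119.6 to 167) in 20 loops within. Loops that left the cluster gave 50.3 tags per 100 kb in HoxA (37.7 to 65.8) and 52.7 in HoxD (39.2 to 69.2), beside 82.2 in HoxB (69.3 to 96.8) and 211 in HoxC (185 to 239). The HoxA interval lay below those of HoxB and HoxC and overlapped that of HoxD. Against HoxB this order rested on the second part of the list, with 10.4 tags per 100 kb in HoxA (5.22 to 18.7) and 56.9 in HoxB (46.3 to 69.3). In the first part it turned, with 39.9 in HoxA (28.7 to 53.9) and 25.3 in HoxB (18.4 to 34.0), and those intervals overlapped. The raw tags leaving in the first part were near equal, 42 in HoxA and 44 in HoxB. The turn thus comes from dividing by cluster lengths of 105 and 174 kb.

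The median loop score was 4 over the 9 HoxA members and 5.00 over the 9 HoxD genes, beside 50.5 in HoxB and 164 in HoxC. The highest were *Hoxa13* with 9, *Hoxd3* with 17, *Hoxb2* with 108 and *Hoxc5* with 385. A loop under 100 kb was present at 0 of the 9 HoxA members and 0 of 9 HoxD genes, but at 8 of 10 HoxB and 8 of 9 HoxC genes. Genes looped in the first part as well as the second numbered 1 among the HoxA members, 4 in HoxD, 8 in HoxB and 8 in HoxC. When the shortest loops were set aside and only loops of 20 kb or longer counted, 238 tags stayed within HoxC and 100 within HoxB.

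**Figure D5:**
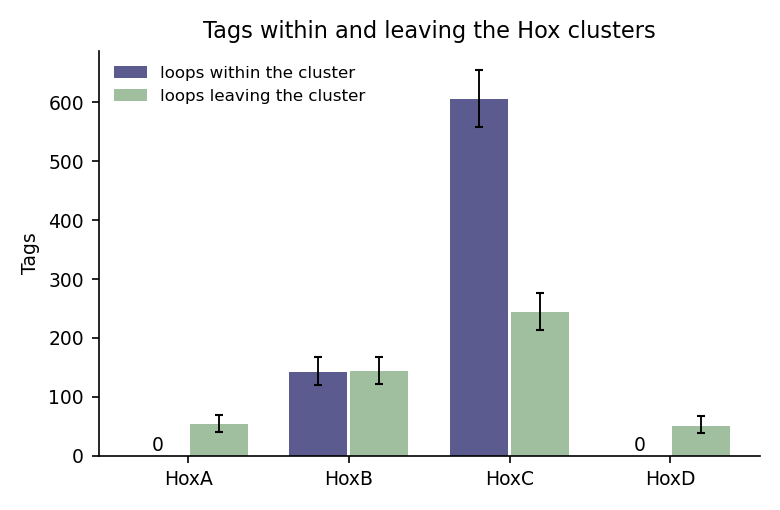
Tags of loops within each Hox cluster (both anchors inside) and of loops leaving it (1 anchor inside), as bars from 0 with exact Poisson 95% intervals where there are tags. HoxC has 605 tags within, HoxB 142, and HoxA and HoxD none.

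Other genes of the HoxA neighborhood followed from the same anchors. Of 25 further GENCODE genes in or within 10 kb of the cluster, leaving out Hox genes, 20 had a loop, mostly antisense and noncoding transcripts that share an anchor with a Hox gene. *Hottip*, the noncoding transcript beside *Hoxa13*, had the same 9 tags as *Hoxa13*. Of the neighbors on the *Skap2* side 3 of 6 had a promoter loop and on the *Evx1* side 6 of 9. These counts stand beside the 45.8% of protein-coding and 23.9% of all GENCODE genes with a loop, and most of the nearby genes share anchors with the members. Among genes for Hox cofactors, which bind DNA together with Hox proteins, 8 of 9 had a promoter loop, beside the same 45.8%. *Meis1* had a loop score of 68 and *Meis2* and *Pbx2* had 14 each, while *Meis3* had none.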

How the data were processed

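H3K27ac HiChIP of 2 hSS2 mouse tumors was analysed. ChIP-seq samples of the series were not used here. Per the methods, the authors digested crosslinked chromatin with MboI, aligned read pairs to mm10 with HiC-Pro and called loops with hichipper at an FDR under 0.05. A legend instead names Mango at 0.01, with loops called for the tumors and then merged. The deposited list merges both tumors and gives, per loop, its anchors, the tag count (raw counts, not normalized) and a p-value column that holds the FDR. Only loops past the threshold are listed, so a count of 0 has no upper limit here. How tag counts were combined in the merge was not found in the sources used here.

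Tags were summed over loops with an anchor within 2 kb of any GENCODE vM21 start site of a gene. A loop was within the cluster when both anchors overlapped it and leaving when 1 did. Scripts used Python 3.11.15, pandas 2.3.3 and scipy 1.17.1, and the promoter assignment was tested on simulated data. Named genes were the members, genes within 10 kb of the cluster, genes at far anchors with at least 2 tags or 2 loops, and the 5 genes sharing most tags with members; other far anchors and the printed sequences were chosen after their values were seen. The members and lists were chosen with earlier results of these data known. Alternatives varied the window, annotation, FDR, tag minimum, part of the list and cluster bounds. One gene of the cluster is not reported here. With no values per tumor, no test was run.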

Additional observations from a re-analysis of the deposited data

How the results depend on the processing

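No paired analysis was possible because the deposited list holds 1 merged set of loops and no values per tumor, and for the same reason no tumor could be left out. No loop lay within HoxA when the cluster was widened by 10 kb, the one alternative that could have added such loops, since the others take subsets of a list with none. The summed tags at member promoters, 35, became 15 at an FDR under 0.01, 9 at an FDR under 0.001, 19 with at least 2 tags per loop, 4 with at least 4 tags, 2 in the second part alone and 24 when loops were counted in place of tags. Members with a loop went from 7 to 3 at an FDR under 0.001, 1 with at least 4 tags and 2 in the second part alone, and 9 with the 5 kb window. The shares of all genes at these settings were not computed. The share of tags on the *Skap2* side, 52.8%, was 100% with at least 4 tags (4 tags in 1 loop) and 100% in the second part alone (11 tags). The share of far anchors near a start site, 47.1%, was 100% at an FDR under 0.001 (3 anchors) and 100% with at least 4 tags (1 anchor). The stricter settings leave few loops by construction, and the cause of the difference between parts was not tested. Of the HoxA loops 25 of 37 (67.6%, 51.5 to 80.4) rest on a single tag, so a single read pair decides them. This limit is not particular to HoxA. Of all loops of 100 kb to 1 Mb in the list, the span of 33 of the HoxA loops, 78.5% held a single tag.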
